A study of Homo sapiens and Mus musculus with 30 samples.

Results

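The total RNA of HEK293A, a human embryonic kidney line, was set against that of NIH3T3, a mouse embryonic fibroblast line, over the 10 total RNA libraries of a set of 30. Each line gave 5 libraries, 1 at each of 5 levels of LIN28B, which binds RNA and keeps let-7 microRNA precursors from being processed. The members are these 10 libraries, and the features are the 9346 gene symbols that are equal, apart from capitals, in the human and the mouse table and occur once in each. The study asked how translation changes with LIN28B, and the comparison of the lines at the RNA level describes the cells in which it did so.

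The HEK293A libraries are X0, which the series design gives as the LIN28B knockout, and X1 to X4, in which the amount of LIN28B goes up step by step. The NIH3T3 libraries carry the same 5 level names, and the design is said to be the same, although their titles name no knockout. All cells were kept in DMEM with 10% FBS, and LIN28B transgenes were induced with doxycycline at 10 ng/ml. Which of the levels received a transgene, whether a level is 1 clone, and the species of the transgene are not given. The design speaks of replicates at each level, but each table has 1 column per level, so the 5 levels stand in for replicates of a line. The spread between libraries of a line therefore holds any effect of LIN28B, and p-values measure the difference between the lines against that spread. Species, laboratory history, gene annotation and cell type differ together between the lines and cannot be told apart.

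Lines of such different origin keep much of the expression programme of their source tissue in culture. Fibroblasts make collagen-rich matrix, respond to platelet-derived growth factors and carry a contractile actin cytoskeleton. HEK293A derives from adenovirus-transformed embryonic kidney cells, a culture known for neuronal and epithelial as well as renal markers, in which viral E1A releases E2F factors from the retinoblastoma protein.

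The HEK293A libraries held 37.7 to 56.0 M reads (M, mega), recovered from the values, and the NIH3T3 libraries 16.1 to 25.003 M. Values are RPKM, the reads of a gene scaled to its length in kilobases and to the total reads of its library in M. The HEK293A table lists 11342 genes and holds no value under 1 RPKM, whereas the NIH3T3 table lists 41128 genes, down to 0. Summed RPKM came to 264823 to 273824 in HEK293A and 671853 to 707434 in NIH3T3, and as deposited the median symbol was higher in HEK293A by 1.28 on the log2 scale. After quantile normalization, which gives all libraries the same distribution of values, this median was 0.07. NIH3T3 X0 stood apart: its correlation with the other NIH3T3 libraries across genes was 0.980 to 0.985, against 0.995 to 0.998 among those 4. Between HEK293A and NIH3T3 libraries the correlation across genes was 0.482 to 0.527. Genes are not independent replicates, so these values carry no p.

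How reads with several possible places were counted is not given, and the tables show where this matters. In NIH3T3 the 4 equally long copies Rpl35a-ps2, Rpl35a-ps3, Rpl35a-ps4 and Rpl35a-ps6, named as pseudogenes, averaged 1994, 2039, 1970 and 2012 RPKM, against 190.0 RPKM for Rpl35a itself. In HEK293A the gene EEF1A1, the abundant translation elongation factor, had only 69.8, 66.4, 63.02, 65.2 and 71.5 RPKM at X0 to X4, against 12183, 10491, 11165, 11021 and 9793 RPKM in NIH3T3. Symbols for which a human or mouse copy named as a pseudogene is annotated number 1115 of the 9346, and differences of such genes are uncertain. The gene models also differ in length, with a median ratio of 1.21 (HEK293A over NIH3T3) among 8976 symbols. They were over 2-fold longer in HEK293A for 1545 symbols and over 2-fold longer in NIH3T3 for 336.

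A symbol was called when limma's test against a 2-fold difference gave an adjusted p under 0.05 (Benjamini-Hochberg, over all 9346 symbols). By this rule 2484 symbols were higher in HEK293A (26.6%) and 2345 were lower (25.1%), 4829 in all (51.7%). Counts of called list members below are to be read beside these 26.6% and 25.1%. Against no fold at all 8479 symbols (90.7%) passed, so the 2-fold rule is used throughout. Without normalization the split was 4746 higher and 1304 lower. As a stricter reading, 1797 symbols (19.2%) were called higher and 1135 (12.1%) lower in the same direction under all 5 scalings tried: quantile normalization, none, median centring, trimmed mean scaling, and quantile normalization of reads not divided by gene length. In the text below, "under all scalings" refers to these 5. The median absolute difference between the lines was 1.25 on the log2 scale, whereas the median SD over the 5 libraries was 0.11 in HEK293A and 0.14 in NIH3T3.

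**Figure D1:**
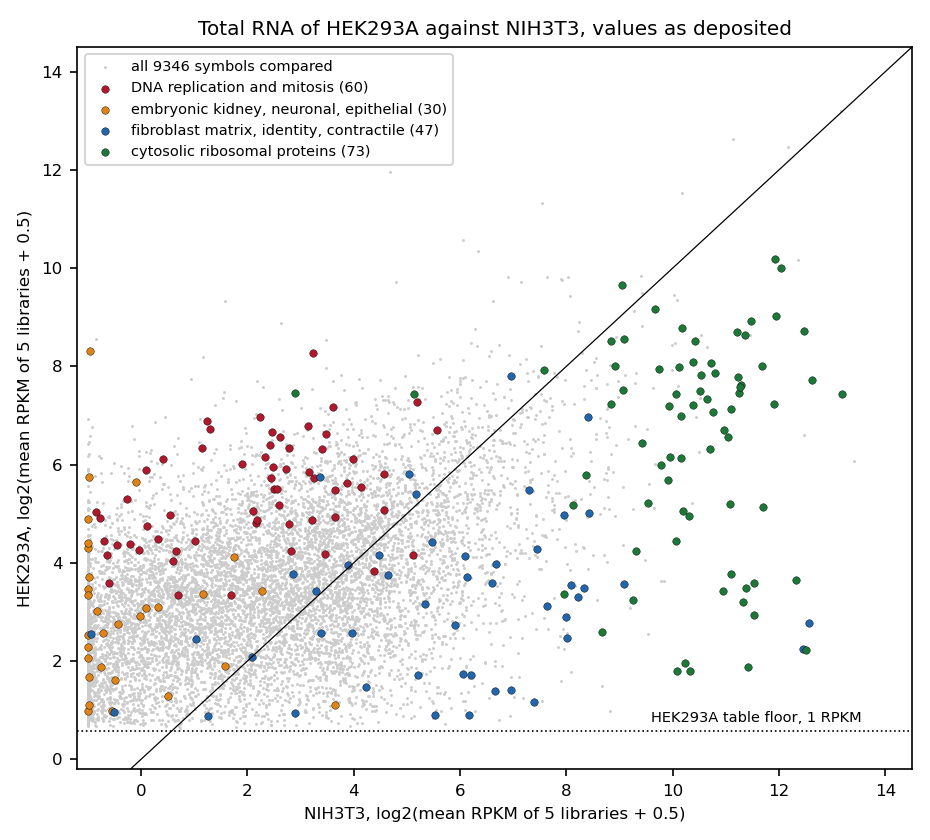
Mean RPKM of the 5 libraries of each line, as log2(mean + 0.5) of the deposited values, for the 9346 symbols compared (HEK293A on the vertical axis, NIH3T3 on the horizontal axis; the solid line marks equal values). Genes of DNA replication and mitosis lie mostly above the line, and fibroblast and ribosomal protein genes mostly below it; the dotted line is the 1 RPKM floor of the HEK293A table.

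The level labels were checked on LIN28B itself. LIN28B had 3.598, 23.04, 33.4, 81.2 and 208 RPKM at X0 to X4 in HEK293A, from 799, 4824, 10397, 23406 and 49549 reads, and 0.007403, 0.0107, 0.0115, 0.0834 and 0.354 RPKM in NIH3T3, from 1, 1, 1, 9 and 42 reads. The HEK293A values run in the order of the levels, and X0, the knockout, also has reads. In NIH3T3 the values are of the mouse gene, and the 3 lower levels had 1 read each. Lin28a, the paralog, was listed at 0.05004, 0.0432, 0.0467, 0 and 0.0114 RPKM in NIH3T3 and is not in the HEK293A table.

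The markers of each line were examined first. Of 12 markers of embryonic kidney, neuronal and epithelial character listed for HEK293A, 9 are in the human table, and all 9 were above every NIH3T3 library in deposited RPKM, as were 64.7% of all symbols compared. By the test 5 of the 9 were called higher and 4 were not called. GAL, the neuropeptide galanin, had 68.9, 83.96, 93.8, 99.9 and 78.9 RPKM in HEK293A and is listed at 0 in all 5 NIH3T3 libraries. NEFL, a neurofilament subunit, had 14.4, 18.6, 19.2, 21.1 and 23.4 RPKM in HEK293A, against 1 read in the 5 NIH3T3 libraries together. The neuronal markers NEFM and INA, by contrast, are not in the human table and are listed at 0 in all 5 NIH3T3 libraries. In the let-7a transfected X0 HEK293A library described below, NEFM had 0.0513 RPKM and INA is listed at 0. The renal regulators among the markers were low: LHX1 had 1.22, 1.39, 1.52, 1.62 and 1.59 RPKM, SALL1 2.38, 2.57, 2.86, 2.89 and 2.82 RPKM and EYA1 3.78, 2.98, 2.899, 3.03 and 3.27 RPKM in HEK293A, and PAX2, which specifies the nephric lineage, is not in the human table.

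Of 12 fibroblast markers 11 were at 1 RPKM or more in all 5 NIH3T3 libraries, and Fap, a surface protease of activated fibroblasts, is listed at 0 in each. Only 5 of them are in the human table, and all 5 were below every NIH3T3 library, as were 23.5% of all symbols compared, and called lower in HEK293A. Markers of other cells were mostly low in NIH3T3. The summed level of 7 endothelial markers was 0.0785 to 0.279 RPKM, that of the 6 listed liver markers 0 to 0.277 RPKM, and that of 8 melanocyte and glial markers 0.820 to 1.15 RPKM. The 7 skeletal muscle markers summed to 1.82 to 3.19 RPKM, with Acta1 at a mean of 1.15 and Des at 0.929 RPKM, and Myod1, Myog and Myf5, which specify muscle, listed at 0. The 6 fat markers summed to 2.03 to 4.33 RPKM, with Lpl, a lipase, at 0.928, 1.46, 1.67, 2.05 and 3.01 RPKM. The blood and immune list summed to 5.15 to 11.2 RPKM through Cd68, a lysosomal protein of macrophages and other cells, at 5.06, 11.1, 10.5, 9.47 and 8.18 RPKM, while Ptprc, the pan-leukocyte antigen, is listed at 0. In the human table these lists have no member for blood, endothelium and liver, and 1 each for muscle (TNNT1), fat (PPARG) and melanocytes and glia (MITF). TNNT1, a troponin of slow muscle, had 5.35, 8.5, 8.402, 11.4 and 14.7 RPKM in HEK293A and 0.163, 0.0783, 0.0282, 0.136 and 0.0619 RPKM in NIH3T3, and its call as higher was lost when reads were not divided by gene length. PPARG, the regulator of fat cell differentiation, had 4.64, 4.33, 3.83, 3.72 and 3.71 RPKM in HEK293A and is listed at 0 in NIH3T3. MITF, the melanocyte regulator, had 1.098, 1.201, 1.101, 1.15 and 1.28 RPKM in HEK293A and 0.669, 0.657, 0.531, 0.403 and 0.527 RPKM in NIH3T3, and its log2 difference was -1.24 after quantile normalization but 0.66 without normalization.

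**Figure D2:**
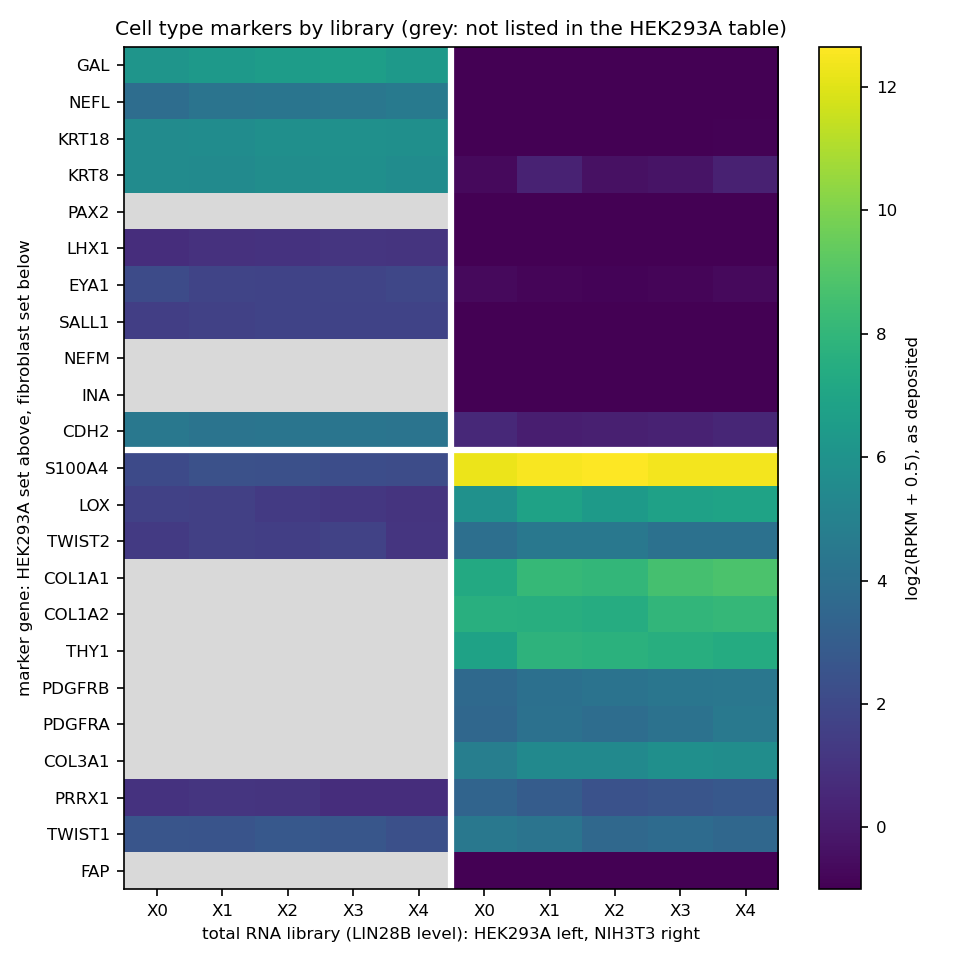
Level of the cell type markers reported here in each of the 10 libraries as log2(RPKM + 0.5) of the deposited values, with HEK293A in the left block and NIH3T3 in the right block and the HEK293A marker set above the fibroblast set. Grey cells mark the 3 HEK293A markers and 7 fibroblast markers that the HEK293A table does not list; S100A4 is the brightest row in NIH3T3.

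The fibroblast matrix programme separated the lines widely. Of 40 matrix genes 22 could be compared, and 15 were lower in HEK293A and 1 was higher, with a median log2 difference of -3.82, against 0.07 over all symbols. Under all scalings 14 were lower and 1 was higher. PCOLCE, which enhances the trimming of procollagen, had 1.74, 1.98, 1.75, 1.72 and 1.603 RPKM in HEK293A and 126, 157, 169, 179 and 200.03 RPKM in NIH3T3, a log2 difference of -7.00 (SE 0.08, adjusted p = 1.28e-15). The groups did not overlap, and as in every such case below, that alone is common by the shares given for all symbols above.

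FBLN5, an elastic fibre protein, had 1.86, 1.998, 1.81, 2.22 and 2.98 RPKM in HEK293A and 44.6, 164, 166, 130.0 and 116 RPKM in NIH3T3, a log2 difference of -6.35 (SE 0.24, adjusted p = 9.97e-11). LOX, the enzyme that cross-links collagen and elastin, had 2.66, 2.53, 2.03, 1.86 and 1.54 RPKM in HEK293A and 60.4, 117, 87.3, 113 and 122 RPKM in NIH3T3, a log2 difference of -6.19 (SE 0.15, adjusted p = 8.5e-13). In NIH3T3 X0 was the lowest library for both genes, yet it still lay far above HEK293A. Further down the list the basement membrane and collagen VI genes differed by unequal amounts: -5.51 for COL6A2 and -4.90 for COL6A1, but -2.09 for COL4A1. COL4A2, its partner chain, was not called, with a log2 difference of -1.19 (SE 0.20, adjusted p = 0.339), and NIH3T3 X0, at 17.9 RPKM, lay below every HEK293A library. SPARC, a collagen-binding glycoprotein, averaged 11.4 RPKM in HEK293A and 544 RPKM in NIH3T3, and FN1, fibronectin, 1.38 and 45.7 RPKM in the same order. The exception was LOXL2, a relative of LOX, which averaged 5.396 RPKM in HEK293A and 0.0191 RPKM in NIH3T3 and was called higher. The 6 members that were not called include CYR61 and CTGF, secreted targets of YAP signalling, at 41.7 against 35.4 RPKM and 17.4 against 21.7 RPKM.

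Fibroblast identity genes, which are transcription factors and surface proteins of mesenchyme, gave 7 lower and 0 higher among 8 compared (of 22), with a median of -3.04. Under all scalings 6 were lower. S100A4, a calcium-binding protein known as fibroblast-specific protein, had 3.68, 4.796, 4.45, 4.099 and 4.01 RPKM in HEK293A and 4949.6, 5902, 6428, 5391 and 5362 RPKM in NIH3T3. Its log2 difference of -10.25 (SE 0.14, adjusted p = 3.54e-15) was the second largest below 0 among all named symbols. The mesenchymal transcription factors were lower in HEK293A by less: the log2 difference was -5.34 for SNAI1, -4.09 for TWIST2, -3.32 for PRRX1 and -2.50 for TWIST1. TBX18, a mesenchymal T-box factor, was the 1 member not called.

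The contractile and caveola list, which also holds LGALS1, annexins and S100 proteins, was mostly lower as well. Of 17 compared (of 23) 12 were lower, among them LGALS1, ANXA1 and ANXA2, and 2 higher, with a median of -2.82. CALD1, MYH9 and S100A10 were not called. Under all scalings 10 were lower and 0 higher. LGALS1, the lectin galectin-1, had 5.05, 6.24, 5.84, 6.85 and 7.93 RPKM in HEK293A and 4975, 6074, 6942, 6264 and 5911 RPKM in NIH3T3, a log2 difference of -9.91 (SE 0.18, adjusted p = 4.68e-14). TPM2, a tropomyosin, had 1.501, 1.36, 1.27, 1.31 and 1.42 RPKM in HEK293A and 71.9, 59.8, 67.3, 72.5 and 84.6 RPKM in NIH3T3 (log2 difference -6.12), and CNN2, a calponin, 3.53, 4.303, 4.401, 6.15 and 6.93 RPKM in HEK293A and 260.2, 225, 246, 269 and 279 RPKM in NIH3T3 (log2 difference -6.10). CNN2 has named pseudogene copies in human. Smooth muscle actin, ACTA2, differed by -5.23 and caveolin, CAV1, by -2.82. Vinculin, VCL, and TAGLN2 were the members called higher, at 53.3 against 9.76 RPKM and 223 against 124 RPKM, and neither held under all scalings.

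Since the human table stops at 1 RPKM, genes below that level in HEK293A do not appear in it. Of 10323 mouse symbols at a mean of 1 RPKM or more, 3514 have no equal symbol in the human table. For 987 of these an equal symbol occurs once in the table of let-7a transfected X0 HEK293A cells, which has no such floor, and 769 were below 1 RPKM there, 170 of them listed at 0. That library is a different condition (10 nM let-7a) and a single one, so its values are given as a description. A value of 0 in it does not show absence, since EEF1G, a translation elongation factor that every cell uses, is also listed at 0, against 1221 RPKM in NIH3T3.

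The genes named here were taken from those below 1 RPKM in that library, so their low HEK293A values are fixed by the choice. Among the 12 highest in NIH3T3, leaving aside ribosomal proteins such as Rpl7a and Rpl36a and the factor Eef1g, most code for secreted or matrix proteins. S100a6, a calcium-binding protein, had 2522, 2579.8, 2815, 2549 and 2407 RPKM in NIH3T3, against 0.0289 RPKM in the HEK293A library. Bgn, the proteoglycan biglycan, had 819, 766, 783, 701 and 622 RPKM in NIH3T3 and is listed at 0 in the HEK293A library. The chains of type I collagen reached 159, 279, 261, 394 and 448 RPKM (Col1a1) and 196, 189, 171, 250.7 and 269 RPKM (Col1a2) in NIH3T3, against 0.903 RPKM and a listed 0 in HEK293A. Crabp1, a retinoic acid binding protein, had 191, 608, 703, 646 and 562 RPKM in NIH3T3, Mgp, a matrix protein that restrains calcification, 101, 421, 458, 348 and 293 RPKM, and Spon2, a secreted spondin, 132, 299, 318, 435 and 503 RPKM. In the HEK293A library Crabp1 is listed at 0, Mgp had 0.0106 RPKM and Spon2 0.0747 RPKM. Map1lc3a, an autophagy protein, is also among the 12, with 146, 241, 225, 202 and 194 RPKM in NIH3T3.

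The same reading covers the receptors that define mesenchyme. Pdgfra had 11.4, 16.5, 14.4, 17.5 and 22.3 RPKM and Pdgfrb 12.3, 15.9, 17.6, 19.7 and 20.6 RPKM in NIH3T3, against 0.0981 and 0.0354 RPKM in the HEK293A library. Thy1, a surface glycoprotein of fibroblasts, had 118, 227, 207, 186 and 165 RPKM, and Axl, a receptor tyrosine kinase, 104, 109, 116, 129 and 156 RPKM, against 0.00948 and 0.272 RPKM in HEK293A. The actin-binding Tagln ran at 18.3, 36.1, 51.1, 57.96 and 84 RPKM and the myosin light chain Myl9 at 13.6, 11.1, 19.01, 26.1 and 36.99 RPKM in NIH3T3. For Crabp1, Spon2, Mgp, Col1a1, Map1lc3a, Thy1, Tagln and both platelet-derived growth factor receptors X0 was the lowest NIH3T3 library. Some list genes that the human table lacks were at a mean of 1 RPKM or more in NIH3T3. These were 14 of 18 matrix, 9 of 14 identity and 4 of 6 contractile and caveola list genes, the last including S100a6.

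**Figure D3:**
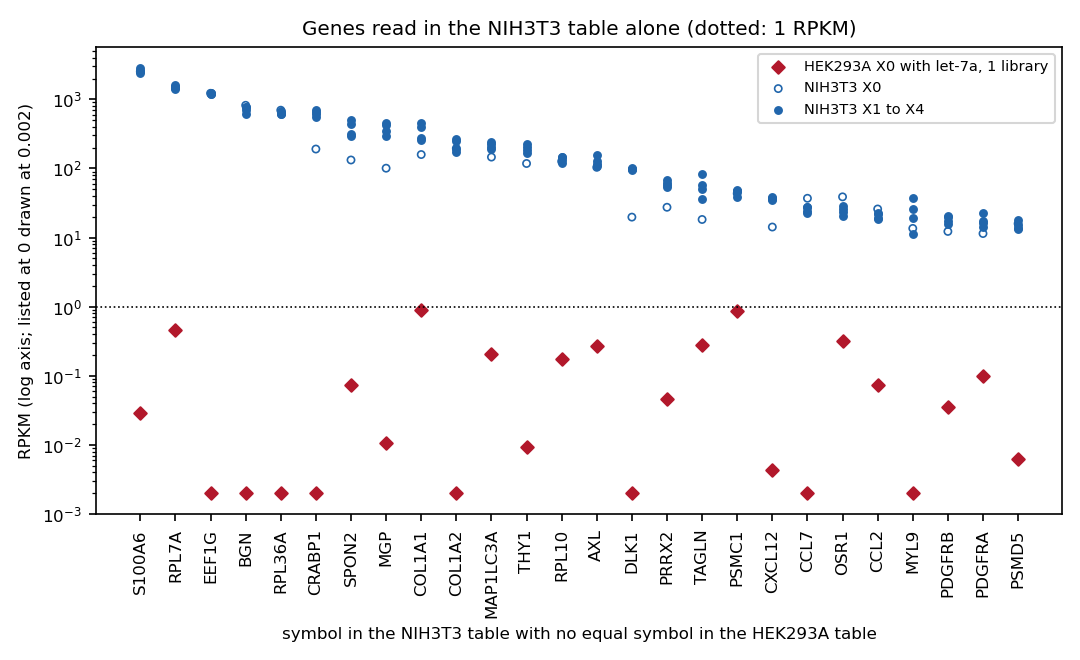
RPKM on a log axis for genes named from the NIH3T3 table that have no equal symbol in the HEK293A table and a mean of 10 RPKM or more: diamonds show the 1 let-7a transfected HEK293A X0 library (values listed at 0 drawn at 0.002), open circles NIH3T3 X0 and filled circles NIH3T3 X1 to X4. Every diamond lies below 1 RPKM because the genes were chosen so, and S100a6 is highest in NIH3T3; ribosomal protein and proteasome genes appear among them.

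In the other direction the renal list gave a mixed result. Of 25 embryonic kidney genes 18 were compared. By the test 7 were higher in HEK293A and 2 lower, where all symbols gave 26.6% and 25.1%, with a list median of 0.92. Under all scalings 5 were higher and 0 lower. The lower calls, EMX2 and GDNF, averaged 1.93 and 3.21 RPKM in HEK293A and 0.9197 and 2.503 RPKM in NIH3T3, so that as deposited they were not below. In deposited RPKM 17 of the 18 were above every NIH3T3 library, and mean levels were at most 29.1 RPKM in HEK293A and 4.36 RPKM in NIH3T3. SIX2, a transcription factor of nephron progenitors, had 26.4, 32.8, 30.5, 31.9 and 23.95 RPKM in HEK293A and is listed at 0 in NIH3T3, a log2 difference of 4.72 (SE 0.095, adjusted p = 3.1e-13). BMP7, a growth factor needed for nephron formation, had 11.4, 12.3, 12.9, 13.7 and 13.1 RPKM in HEK293A, against 2 reads in NIH3T3 in all (log2 difference 3.21). GATA3, a regulator of the nephric duct, had 5.99, 7.51, 7.98, 9.09 and 7.22 RPKM in HEK293A and 0.201, 0.0579, 0, 0.0377 and 0.0229 RPKM in NIH3T3 (log2 difference 2.01). Osr1, an early marker of intermediate mesoderm, was the reverse case, with 38.8, 25.5, 20.3, 23.2 and 28.5 RPKM in NIH3T3 and 0.317 RPKM in the let-7a HEK293A library.

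Neuronal genes are mostly missing from the human table: 5 of 25 are listed, of which 3 were called higher, each under all scalings. UCHL1, a neuronal ubiquitin hydrolase, had 339.6, 319.9, 312, 311 and 314 RPKM in HEK293A, against 2 reads in all NIH3T3 libraries, a log2 difference of 9.22 (SE 0.072, adjusted p = 1.74e-16). STMN3, a tubulin-binding stathmin, had 6.16, 11.5, 11.3, 13.3 and 10.8 RPKM in HEK293A and is listed at 0 in NIH3T3 (log2 difference 2.88). Syp, of synaptic vesicles, and Mapt, the axonal protein tau, averaged 0.108 and 0.0758 RPKM in NIH3T3. They were low in the let-7a HEK293A library as well, at 0.0755 and 0.434 RPKM. Ncam1, an adhesion protein, was higher in NIH3T3, at 4.33, 6.44, 5.97, 8.75 and 12.1 RPKM, against 0.783 RPKM in the let-7a HEK293A library.

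Epithelial genes split in the same manner, with 7 of 24 listed, 4 higher and 1 lower, and the same 4 and 1 under all scalings. KRT18 and KRT8, the paired keratins of simple epithelia, had 48.4, 50.1, 55.1, 57.2 and 54.8 RPKM and 47, 45.4, 50.5, 54.9 and 49.7 RPKM in HEK293A. In NIH3T3 KRT18 had 1 read in all, and KRT8 had 0.133, 0.733, 0.276, 0.333 and 0.706 RPKM. Both human genes have many named pseudogene copies, and their level is uncertain. DSP, the desmosomal plaque protein, had 21.1, 19.6, 19.5, 19.3 and 23.1 RPKM in HEK293A and is listed at 0 in NIH3T3. JUP, plakoglobin, was lower in HEK293A (1.66 against 12.1 RPKM), and the epithelial cadherin gene CDH1 was at 0.0182 RPKM in the let-7a HEK293A library.

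HOX genes, which record position along the body axis, were called in both directions. Of 26 compared (of 39) 9 were higher in HEK293A and 5 lower, where all symbols gave 26.6% and 25.1%, so the counts say nothing particular of the list, and 6 and 2 held under all scalings. The 9 were HOXA9, HOXB4, HOXB7, HOXB9, HOXB13, HOXC13, HOXD10, HOXD11 and HOXD13, and the 5 were HOXA3, HOXA4, HOXA7, HOXD8 and HOXD9. The direction of HOXA4 turns with scaling, since its deposited means were 1.499 RPKM in HEK293A and 1.13 RPKM in NIH3T3. Several members were present in both lines, such as HOXA5 at 12.6 RPKM in HEK293A and 4.04 RPKM in NIH3T3. HOXD13, the last gene of its cluster, had 27.8, 30.5, 31.4, 30.6 and 29.5 RPKM in HEK293A and is listed at 0 in NIH3T3. HOXB9 had 16.3, 15.4, 14.1, 14.2 and 12.2 RPKM in HEK293A and is also listed at 0 in NIH3T3. HOXD9 had 3.96, 4.59, 4.298, 3.48 and 2.25 RPKM in HEK293A and 14.7, 25.8, 22.1, 17.1 and 16.9 RPKM in NIH3T3, a log2 difference of -3.46 (SE 0.20, adjusted p = 4.24e-08). Hoxa2 and Hoxa10 were read in NIH3T3 alone, at means of 4.24 and 1.19 RPKM. In NIH3T3, 13 of the 26 compared members are listed at 0 in every library.

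**Figure D4:**
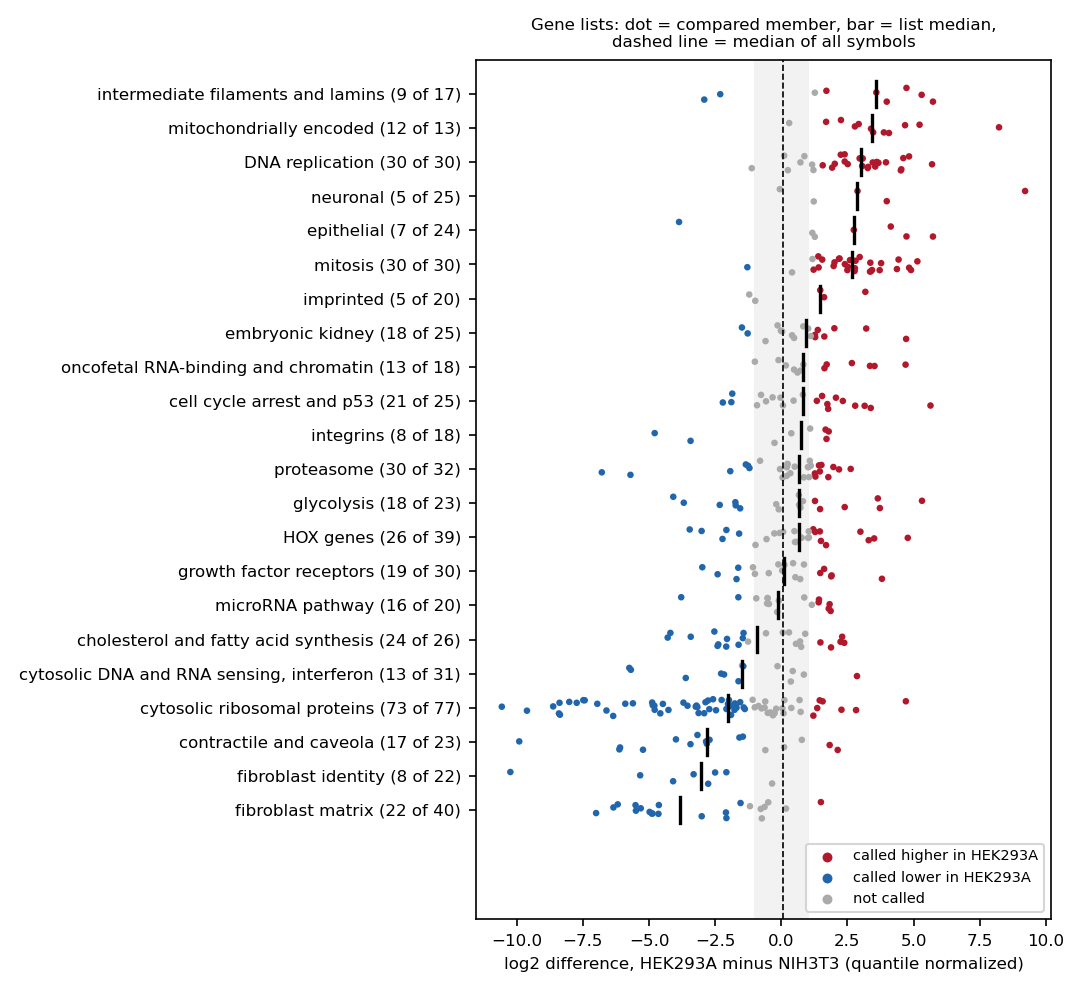
Log2 difference (HEK293A minus NIH3T3, quantile normalized) of each compared member of the 22 lists with at least 5 compared members, with the number compared of the number on the list in brackets. Red dots were called higher in HEK293A and blue dots lower, bars are list medians and the dashed line is the median of all symbols (0.07); the medians run from 3.59 for intermediate filaments and lamins to -3.82 for fibroblast matrix.

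Genes of the cell cycle were called mostly in 1 direction. All 30 DNA replication genes were compared, and 23 were higher in HEK293A and 0 lower, with a median of 3.01. Under all scalings 22 were higher. PCNA, the sliding clamp of the replicative polymerases, had 316, 309, 306, 287 and 329 RPKM in HEK293A and 8.53, 9.16, 7.91, 9.403 and 9.29 RPKM in NIH3T3, a log2 difference of 5.70 (SE 0.058, adjusted p = 6.66e-16). CDC6, which loads the replicative helicase, had 54.8, 59.2, 59.4, 58.5 and 63.2 RPKM in HEK293A and 0.436, 0.671, 0.452, 0.679 and 0.626 RPKM in NIH3T3 (log2 difference 4.83). POLA1, the catalytic subunit of DNA polymerase alpha, had 30.9, 33.1, 33.1, 30.7 and 32.99 RPKM in HEK293A and 0.0726, 0.0392, 0.0353, 0.0511 and 0.0826 RPKM in NIH3T3 (log2 difference 4.61). The 6 helicase subunits averaged 28.6 (MCM5) to 144 (MCM7) RPKM in HEK293A and 1.71 (MCM4) to 11.7 (MCM7) RPKM in NIH3T3, and all but MCM5 were called higher. The 7 members not called were MCM5, CDT1, ORC6, GINS3, GINS4, LIG1 and RFC4. Among these GINS4, of the helicase complex, averaged 13.7 RPKM in HEK293A and 20.3 RPKM in NIH3T3.

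Mitosis genes gave 27 higher and 1 lower of 30, with a median of 2.68, and 20 were higher and 0 lower under all scalings. TPX2, a spindle assembly factor, had 113, 119, 115, 114 and 128 RPKM in HEK293A and 2.01, 1.97, 1.44, 1.99 and 1.89 RPKM in NIH3T3, a log2 difference of 5.14 (SE 0.068, adjusted p = 7.61e-15). TOP2A, the topoisomerase that untangles sister chromatids, had 112, 104, 101, 94.6 and 115 RPKM in HEK293A and 2.04, 2.32, 1.34, 1.99 and 2.02 RPKM in NIH3T3 (log2 difference 4.90). PRC1, which bundles the central spindle, had 76.6, 70.6, 67.3, 64.1 and 65.6 RPKM in HEK293A and 0.744, 0.889, 0.787, 0.833 and 0.929 RPKM in NIH3T3 (log2 difference 4.83). CENPA, the centromeric histone, was the 1 member called lower, at 17.3 against 33.9 RPKM. MYBL2, a transcription factor of mitotic genes and among the 12 largest differences above 0, had 314, 295, 292, 292 and 258 RPKM in HEK293A and 0.932, 1.85, 2.05, 1.92 and 2.003 RPKM in NIH3T3. MKI67, the proliferation antigen, was named after its values were seen and had 58.3, 58.5, 56.5, 54.2 and 53.9 RPKM in HEK293A and 0.254, 0.263, 0.0864, 0.109 and 0.172 RPKM in NIH3T3.

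Very low values in NIH3T3 were not limited to proliferation genes. NCL and HNRNPA2B1, abundant nuclear RNA-binding proteins named after their values were seen, averaged 190.2 and 369 RPKM in HEK293A but 4.43 and 10.7 RPKM in NIH3T3. RBM42, another RNA-binding protein, averaged 72.2 RPKM in HEK293A and is listed at 0 in each NIH3T3 library. HSP90AA1 and DNAJA1, cytosolic chaperones of all cells, were among the 12 largest differences above 0. HSP90AA1 had 494, 460.0, 462, 441 and 493 RPKM in HEK293A and 7.96, 4.58, 3.58, 5.397 and 7.01 RPKM in NIH3T3. DNAJA1, which has named copies, had 178, 196, 209, 221 and 260.1 RPKM in HEK293A and 2.401, 1.08, 0.93, 1.26 and 1.47 RPKM in NIH3T3. Over all compared symbols 2537 (27.1%) had a mean below 1 RPKM in NIH3T3, and 423 are listed at 0 in all 5 libraries. The part that counting or annotation has in the cell cycle differences was not tested.

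Many replication genes are controlled by E2F factors, and many mitotic genes by a complex that binds the CHR element, so promoters were scanned for both. Windows ran from 250 bases before to 50 bases after the start (RefSeq, GRCh38.p14). E2F words were TTTCCCGC, TTTCGCGC, TTTGCCGC and TTTGGCGC on either strand. They occurred for 17 of 26 replication genes that the table holds (65.4%), against 3.99% of 27305 genes. CHR words were TTTGAA and TTCGAA on either strand, the second of which reads the same on both. They occurred for 18 of 24 mitosis genes (75%), against 19.5% of all genes. No word of one set holds a word of the other, and a match is only a match of letters. Each list was scanned for words known for such genes, so the shares are largely set by the choice of list. Whether these factors have a part in the differences between the lines was not tested. Windows are shown for 3 genes of each list that were called higher by large differences and have 1 matching window, to show where the words lie, as lines of 300 bases with the matches in capitals.
PCNA: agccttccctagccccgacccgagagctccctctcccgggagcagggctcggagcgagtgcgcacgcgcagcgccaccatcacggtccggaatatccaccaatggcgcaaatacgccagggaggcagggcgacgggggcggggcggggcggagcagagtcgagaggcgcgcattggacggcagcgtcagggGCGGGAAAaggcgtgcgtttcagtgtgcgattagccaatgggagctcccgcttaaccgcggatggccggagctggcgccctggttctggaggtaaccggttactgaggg
CDC6: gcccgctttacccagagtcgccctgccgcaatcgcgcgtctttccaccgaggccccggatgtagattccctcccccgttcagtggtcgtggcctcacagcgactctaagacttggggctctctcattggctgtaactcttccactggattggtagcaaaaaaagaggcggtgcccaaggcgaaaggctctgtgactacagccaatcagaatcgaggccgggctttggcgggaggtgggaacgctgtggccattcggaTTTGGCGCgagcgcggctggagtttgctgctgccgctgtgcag
POLA1: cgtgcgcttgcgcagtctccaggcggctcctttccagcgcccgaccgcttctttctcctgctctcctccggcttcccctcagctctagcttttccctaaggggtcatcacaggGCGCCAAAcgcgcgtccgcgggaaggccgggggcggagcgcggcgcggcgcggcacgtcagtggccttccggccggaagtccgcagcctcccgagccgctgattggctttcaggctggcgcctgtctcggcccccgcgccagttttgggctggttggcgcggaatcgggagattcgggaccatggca
TOP2A: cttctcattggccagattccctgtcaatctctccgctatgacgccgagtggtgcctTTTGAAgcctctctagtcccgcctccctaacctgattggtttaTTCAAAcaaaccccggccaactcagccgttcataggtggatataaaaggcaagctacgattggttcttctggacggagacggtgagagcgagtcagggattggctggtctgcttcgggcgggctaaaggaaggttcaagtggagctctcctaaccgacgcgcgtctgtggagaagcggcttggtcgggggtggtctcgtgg
PRC1: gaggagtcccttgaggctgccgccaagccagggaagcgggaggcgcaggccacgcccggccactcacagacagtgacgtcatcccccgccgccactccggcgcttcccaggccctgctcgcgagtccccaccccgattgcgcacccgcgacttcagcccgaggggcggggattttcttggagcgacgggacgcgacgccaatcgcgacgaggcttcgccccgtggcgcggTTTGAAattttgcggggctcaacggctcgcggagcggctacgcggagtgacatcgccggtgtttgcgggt
KIF11: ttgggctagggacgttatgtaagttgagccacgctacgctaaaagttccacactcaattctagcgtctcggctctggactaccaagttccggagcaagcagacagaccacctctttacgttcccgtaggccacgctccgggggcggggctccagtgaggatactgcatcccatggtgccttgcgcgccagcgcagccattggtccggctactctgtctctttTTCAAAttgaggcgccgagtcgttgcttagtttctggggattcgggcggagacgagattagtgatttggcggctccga

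The PCNA window lies at chr20:5126573-5126872 (minus strand), CDC6 at chr17:40287629-40287928 (plus strand) and POLA1 at chrX:24693668-24693967 (plus strand). For TOP2A it is chr17:40417847-40418146 (minus strand), for PRC1 chr15:90994486-90994785 (minus strand) and for KIF11 chr10:92592880-92593179 (plus strand). KIF11, a spindle motor, averaged 38.99 RPKM in HEK293A and 0.331 RPKM in NIH3T3. These windows are of the human genes, and mouse promoters were not used here.

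Cell cycle inhibitors and p53 targets did not move as 1 group: 10 were higher and 3 lower in HEK293A of 21 compared (of 25) and 9 and 2 under all scalings. Over all symbols 26.6% were higher and 25.1% lower. CDKN2A, which codes for p16 and ARF at a locus known to be deleted in NIH3T3, had 56.6, 53.2, 52.7, 54.98 and 38.5 RPKM in HEK293A, against 1 read in all NIH3T3 libraries. Its neighbour CDKN2B, which codes for p15, had 13.6, 11.7, 11.7, 10.9 and 11.3 RPKM in HEK293A and is listed at 0 in NIH3T3. RB1, the retinoblastoma protein, had 18.4, 17.5, 17.1, 16.2 and 19.5 RPKM in HEK293A and 0.459, 0.153, 0.0621, 0.0915 and 0.113 RPKM in NIH3T3, a log2 difference of 3.38 (SE 0.094, adjusted p = 2.32e-11). CDKN2D, an inhibitor of CDK4, and CCND3, a D-type cyclin, were lower in HEK293A under all scalings, with log2 differences of -2.21 and -1.85. Cdkn1c, the imprinted p57, is listed at 0 in all NIH3T3 libraries.

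The oncofetal genes included LIN28B and its functional relatives. Of 13 compared (of 18) 6 were higher in HEK293A and 0 lower, 4 of them under all scalings, but LIN28B itself was set by the experiment. All symbols gave 26.6% higher and 25.1% lower. IGF2BP1, an RNA-binding protein of fetal tissue and a let-7 target, had 27.4, 44.1, 48.9, 54.6 and 56.4 RPKM in HEK293A and 2.08, 1.498, 1.41, 1.57 and 2.24 RPKM in NIH3T3, a log2 difference of 3.52 (SE 0.19, adjusted p = 2.11e-08). SOX2, a pluripotency and neural progenitor factor, had 15.2, 14.9, 15.8, 16.95 and 15.2 RPKM in HEK293A and 0.0194, 0.02798, 0.151, 0.0487 and 0.0442 RPKM in NIH3T3 (log2 difference 3.35). DNMT3B, a de novo DNA methyltransferase, averaged 15.1 RPKM in HEK293A and 0.418 RPKM in NIH3T3. Mycn, an embryonic MYC relative, had 0.194, 0.122, 0.0945, 0.0912 and 0.0276 RPKM in NIH3T3.

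The microRNA machinery gave 5 higher and 2 lower of 16 compared, 4 and 1 under all scalings, and a median of -0.13. Over all symbols 26.6% were higher and 25.1% lower, so the higher calls are near the share of all symbols. DGCR8, the partner of DROSHA in primary microRNA cleavage, had 14.1, 14.2, 14.3, 14.1 and 12.7 RPKM in HEK293A and 1.89, 1.23, 0.734, 1.14 and 0.968 RPKM in NIH3T3 (log2 difference 1.83). TNRC6A, the silencing partner of Argonaute, had 11.9, 11.9, 11.9, 11.4 and 12.1 RPKM in HEK293A and 1.28, 0.693, 0.485, 0.638 and 0.719 RPKM in NIH3T3 (log2 difference 1.86). PRKRA, a DICER1 partner, was lower in HEK293A, with 3.09, 3.94, 3.79, 3.97 and 4.297 RPKM against 32.2, 23.6, 24.6, 24.7 and 25.1 RPKM in NIH3T3 (log2 difference -3.79). DICER1 averaged 12.6 RPKM in HEK293A and 0.927 RPKM in NIH3T3, and ZCCHC11, which adds uridines to precursors of let-7 bound by LIN28, 8.06 and 0.462 RPKM. AGO2 was not called, at 10.8 against 5.66 RPKM.

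Imprinted genes were largely read in NIH3T3 alone. Of 5 compared (of 20) 3 were higher in HEK293A, each under all scalings, too few to read against the 26.6% over all symbols. SGCE, a sarcoglycan, had 14.4, 12.5, 11.6, 10.9 and 11.9 RPKM in HEK293A against 1 read in NIH3T3. PLAGL1, a zinc finger factor, had 5.89, 6.02, 5.62, 5.47 and 5.22 RPKM in HEK293A against 31 reads in NIH3T3. IGF2R, the receptor that clears IGF2, had 20.8, 18.7, 19.2, 19.7 and 21.1 RPKM in HEK293A and 4.31, 2.46, 1.97, 2.93 and 3.46 RPKM in NIH3T3. Dlk1, a Notch-like inhibitor of fat cell differentiation, had 19.8, 98.3, 97.6, 101 and 96.2 RPKM in NIH3T3 and is listed at 0 in the let-7a HEK293A library. Ndn, a growth suppressor, had 0.678, 4.04, 4.56, 4.63 and 3.52 RPKM in NIH3T3. Snrpn, a splicing protein from the same imprinted region, had 0.363, 1.196, 1.32, 1.03 and 1.23 RPKM in NIH3T3. X0 was the lowest NIH3T3 library for these 3 genes.

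Ribosomal protein genes were among the largest differences below 0, together with S100A4 and LGALS1, which have no named copy, and the ribosomal genes carry the caution on copies given above. Of 77 cytosolic ribosomal protein genes 73 were compared, with 48 lower and 7 higher in HEK293A and a median of -2.02, and 41 were lower and 1 higher under all scalings. Every one of the 73 has a named pseudogene copy. They took 3.62% to 3.98% of reads in HEK293A and 16.8% to 18.9% in NIH3T3. RPS27 had 4.402, 3.47, 4.52, 3.23 and 5.37 RPKM in HEK293A and 6269, 6144, 6146, 5589.7 and 4960.4 RPKM in NIH3T3, the largest difference of any named symbol at -10.57 (SE 0.18, adjusted p = 2.06e-14). RPSA, RPL3, RPL7 and RPS10 had means of 3.18, 2.98, 2.95 and 3.37 RPKM in HEK293A, while RPL11 had 804 RPKM. In NIH3T3 the same 5 averaged 2742, 1281, 1078, 1205 and 529.6 RPKM. The HEK293A level thus ranged from 2.95 to 1166 RPKM among subunits of 1 complex. Also among the 12 largest differences below 0, RPS26 and RPS7 averaged 12 and 8.69 RPKM in HEK293A and 5091 and 2543 RPKM in NIH3T3.

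Proteasome subunits form another complex of fixed make-up. Of 30 compared (of 32) 9 were higher and 6 lower in HEK293A, not far from the 26.6% and 25.1% over all symbols. Under all scalings 1 was higher and 3 were lower. PSMA6 had 1.35, 1.36, 1.51, 1.31 and 1.16 RPKM in HEK293A and 117, 113, 113, 118 and 148 RPKM in NIH3T3 (log2 difference -6.79). PSMA2, like PSMA6 a subunit of the core ring, had 3.72, 4.32, 3.93, 3.79 and 4.27 RPKM in HEK293A and 128, 133, 127, 136 and 155 RPKM in NIH3T3 (log2 difference -5.70). Both human genes have named copies. PSMD1, of the regulatory cap, was higher, with 33.6, 36.1, 37.1, 36.7 and 39.9 RPKM in HEK293A and 4.602, 2.61, 2.07, 3.24 and 3.67 RPKM in NIH3T3 (log2 difference 2.62). Psmc1 and Psmd5 averaged 45.1 and 15.1 RPKM in NIH3T3 and were at 0.878 and 0.00633 RPKM in the let-7a HEK293A library.

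CEBPD and GABARAP, also among the 12 largest differences below 0, have no named copy. CEBPD, a transcription factor of the inflammatory and adipogenic response, had 1.66, 1.53, 1.53, 1.33 and 1.38 RPKM in HEK293A and 301, 557, 529, 475 and 406 RPKM in NIH3T3, a log2 difference of -8.20 (SE 0.11, adjusted p = 3.23e-15). GABARAP, an autophagosome protein, had 2.604, 1.93, 2.49, 2.34 and 2.22 RPKM in HEK293A and 464, 419, 395, 362 and 384 RPKM in NIH3T3, a log2 difference of -7.71 (SE 0.083, adjusted p = 6.66e-16).

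Among the 12 largest differences above 0, several genes are tissue-restricted. CKB, the brain creatine kinase, had 390.4, 366, 392, 419 and 318 RPKM in HEK293A and 0.0541, 0, 0.0842, 0.102 and 0.0308 RPKM in NIH3T3, a log2 difference of 9.31 (SE 0.10, adjusted p = 6.44e-16). EEF1A2, the elongation factor of neurons and muscle, had 65, 84.3, 94.1, 135 and 163 RPKM in HEK293A, in the order of the LIN28B levels, and 0, 0.0276, 0.0299, 0 and 0.0873 RPKM in NIH3T3. NRARP, a feedback inhibitor of Notch signalling, had 106, 125, 129, 129 and 114 RPKM in HEK293A and is listed at 0 in NIH3T3. PODXL2, a sialomucin, had 93.3, 99.3, 98.4, 104 and 82.6 RPKM in HEK293A, against 6 reads in NIH3T3, and HSPB1, a small heat shock protein, 85.5, 87.4, 87.4, 101 and 74.5 RPKM, against 1 read.

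Mitochondrially encoded RNA took 3.90% to 4.80% of HEK293A reads and 1.52% to 2.27% of NIH3T3 reads. Of 12 genes compared (of 13) 11 were higher in HEK293A, and 4 of them held under all scalings (MT-ND4, MT-ND4L, MT-ND5 and MT-ND6). MT-ND6, a complex I subunit encoded on the light strand, had 668, 598, 589.9, 695 and 649 RPKM in HEK293A and 1.23, 5.88, 2.28, 1.35 and 1.67 RPKM in NIH3T3, a log2 difference of 8.23 (SE 0.24, adjusted p = 4.43e-12). MT-ND5 had 1254, 1247, 1125, 1443 and 1455 RPKM in HEK293A and 80.9, 107, 69, 58.9 and 83.9 RPKM in NIH3T3. MT-ND4, also of complex I, had 2425, 2373, 2269, 3453 and 2244 RPKM in HEK293A and 230.5, 246, 149, 131 and 172 RPKM in NIH3T3. MT-CO3 was not called, at 9331 against 9176 RPKM. The large ribosomal RNA MT-RNR2 had 5758, 3822, 3434, 3481 and 3336 RPKM in HEK293A and 27.8, 31.2, 25.5, 18.5 and 23 RPKM in NIH3T3. Cytochrome b is listed under unequal symbols and was not tested, at 3471 ± 341 RPKM in HEK293A and 1256 ± 242 RPKM in NIH3T3 (SD, n = 5 each).

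Of 18 glycolysis genes compared 6 were higher and 6 lower in HEK293A, not far from the 26.6% and 25.1% over all symbols, and 3 and 4 under all scalings. PFKP, the platelet isoform of phosphofructokinase, had 82.7, 74.5, 75.8, 82.04 and 76.04 RPKM in HEK293A and 1.31, 0.417, 0.245, 0.591 and 0.629 RPKM in NIH3T3 (log2 difference 5.32), while PFKL and PFKM averaged 12.2 and 15.99 RPKM in HEK293A and 25.5 and 43.3 RPKM in NIH3T3. LDHB had 451, 430.2, 428, 421 and 425 RPKM in HEK293A and 81.4, 69.3, 78.9, 76.3 and 78.6 RPKM in NIH3T3 (log2 difference 3.73), whereas LDHA, at 173 and 182 RPKM, was not called. PGAM1 was lower, with 15.3, 18.5, 17.6, 20.03 and 15.1 RPKM in HEK293A and 496, 298, 281, 348 and 379 RPKM in NIH3T3, and has named copies. ACTB and GAPDH, common reference genes named after their values were seen, averaged 702 and 655 RPKM in HEK293A and 1034 and 1078 RPKM in NIH3T3. Quantile normalization called both higher in HEK293A, and without normalization the sign turned, so neither direction holds.

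In cholesterol and fatty acid synthesis 11 were lower and 5 higher of 24 compared, and 8 and 3 under all scalings, with a median of -0.92. Over all symbols 25.1% were lower and 26.6% higher, so the higher calls are not above that share. MVD had 8.81, 7.64, 8.12, 7.895 and 6.04 RPKM in HEK293A and 87.6, 121, 119, 122 and 99.4 RPKM in NIH3T3, a log2 difference of -4.30 (SE 0.13, adjusted p = 2.25e-11). MVK, like MVD an enzyme of the mevalonate pathway, had 6.05, 5.07, 4.73, 4.87 and 4.47 RPKM in HEK293A and 22.2, 30.3, 28.5, 30.8 and 32.2 RPKM in NIH3T3. NSDHL, a later sterol dehydrogenase, had 4.97, 4.54, 4.65, 4.59 and 4.92 RPKM in HEK293A and 47.9, 53.6, 48.6, 52.2 and 48.1 RPKM in NIH3T3 (log2 difference -4.19). The members called higher were HMGCS1, IDI1, DHCR7, ACACA and FASN.

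Growth factor receptors gave 5 higher and 4 lower of 19 compared (of 30), shares near the 26.6% and 25.1% over all symbols, and 5 and 2 under all scalings. FGFR3 had 14.7, 16.96, 18.2, 20.4 and 16.1 RPKM in HEK293A against 1 read in NIH3T3, while FGFR1 had 8.57, 8.59, 8.42, 8.97 and 8.16 RPKM in HEK293A and 20.7, 28.3, 28.7, 29.97 and 31.7 RPKM in NIH3T3 (log2 difference -2.41). TGFBR2, the ligand-binding receptor of TGF-beta, had 5.59, 4.599, 4.67, 4.65 and 5.57 RPKM in HEK293A and 14.8, 21.8, 19.7, 20.98 and 22.5 RPKM in NIH3T3 (log2 difference -2.99), but TGFBR1 was higher in HEK293A, at 7.87 against 0.375 RPKM. Of 8 integrins compared (of 18) 3 were higher and 2 lower, too few to read against those shares, and 2 and 2 under all scalings. ITGB5 had 7.58, 6.82, 6.898, 7.33 and 6.49 RPKM in HEK293A and 81.5, 154, 171, 174 and 164 RPKM in NIH3T3. ITGA5, a chain of the fibronectin receptor, had 6.29, 6.602, 5.89, 6.54 and 7.97 RPKM in HEK293A and 25.2, 41.8, 45.02, 53.5 and 62.1 RPKM in NIH3T3. ITGA4 had 5.43, 5.97, 5.86, 5.77 and 6.07 RPKM in HEK293A and is listed at 0 in NIH3T3. Itgb7 and Itga11 were read in NIH3T3 alone, at means of 5.502 and 4.88 RPKM.

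Intermediate filaments and lamins had the highest median of the 22 lists plotted, 3.59 over 9 compared (of 17), with 6 higher and 2 lower, and 5 and 2 under all scalings. The other 8 are not in the human table, so this median covers only members listed for HEK293A. Only 4 of the 9 have no named pseudogene copy. Besides the keratins and NEFL, LMNB2, a B-type lamin, had 153, 152, 159.6, 169 and 145 RPKM in HEK293A and 2.01, 3.22, 3.11, 3.13 and 3.25 RPKM in NIH3T3, a log2 difference of 5.31 (SE 0.12, adjusted p = 8.72e-13). The members lower in HEK293A were VIM and LMNA. VIM, the mesenchymal filament vimentin, had 171, 126, 127, 119.5 and 104 RPKM in HEK293A and 2994, 1429.8, 1468, 1498 and 1221 RPKM in NIH3T3, a log2 difference of -2.31 (SE 0.21, adjusted p = 4.82e-05), and LMNA averaged 18.8 and 142 RPKM in the same order.

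Sensing and interferon genes were lower in 7 and higher in 1 of 13 compared (of 31), 4 and 1 under all scalings, and their median of -1.48 moved to 0.07 without normalization. All symbols gave 25.1% lower and 26.6% higher. IFITM2, a membrane protein that blocks virus entry, had 11.5, 12.03, 11.5, 13.1 and 11.3 RPKM in HEK293A and 834, 966, 1007, 911 and 838 RPKM in NIH3T3. IFITM3, of the same function, had 12.3, 10.9, 11.3, 13.6 and 11.3 RPKM in HEK293A and 824, 928, 903, 871 and 846 RPKM in NIH3T3. They are close paralogs, and how reads shared between them were counted is not given. ISG15, a ubiquitin-like modifier, had 2.75, 3.401, 3.88, 4.84 and 4.52 RPKM in HEK293A and 15.2, 21.5, 26.7, 24.95 and 28.4 RPKM in NIH3T3 (log2 difference -3.61). Chemokine genes were read in NIH3T3 alone, with 14.2, 39.1, 37.02, 36.04 and 34.4 RPKM for Cxcl12, which attracts CXCR4-bearing cells. Ccl7 averaged 27.7 RPKM and Ccl2 21.5 RPKM there.

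Over the levels of LIN28B, 5 genes with a mean of 5 RPKM or more in both lines had the widest range of the difference between the lines. These are descriptions, with 1 library per level and line. CYBA, a subunit of the NADPH oxidase, had 28.5, 29.1, 30.5, 35.4 and 27.99 RPKM in HEK293A and 33.2, 3.26, 4.43, 2.97 and 0.3 RPKM in NIH3T3, so that the log2 difference ran through -0.46, 2.15, 1.83, 2.57 and 3.90. CDKN1A, the p53 target p21, had 6.88, 13.2, 13.3, 16.7 and 25.6 RPKM in HEK293A and 92.1, 35.8, 29.1, 31.1 and 27.05 RPKM in NIH3T3, highest at X4 in HEK293A and at X0 in NIH3T3. The CDKN1A log2 difference was called lower in HEK293A, at -1.89 (SE 0.40, adjusted p = 0.0426), and the call was lost without X0 of both lines, at -1.28 (adjusted p = 0.187), and without any of HEK293A X0 to X2 or NIH3T3 X0 to X3 alone. CLU, the secreted chaperone clusterin, had 189, 112, 105, 83.8 and 64.03 RPKM in HEK293A and 3.82, 11.9, 10.5, 12.1 and 13.1 RPKM in NIH3T3, a difference of 5.62, 3.19, 3.12, 2.62 and 2.10 at X0 to X4. GPRC5A, a retinoid-induced receptor, had 15.5, 7.57, 7.07, 4.94 and 5.601 RPKM in HEK293A and 10.4, 13.4, 13.6, 14.2 and 23.5 RPKM in NIH3T3, highest at X0 in HEK293A and at X4 in NIH3T3. HMGA2, a chromatin protein and let-7 target, had 5.87, 16.7, 18.5, 19.7 and 18.8 RPKM in HEK293A and 5.11, 5.201, 3.77, 5.48 and 7.96 RPKM in NIH3T3, and in HEK293A X0 was the lowest library by far. HMGA2 was not called between the lines. The CYBA log2 difference of 2.00 was not called (adjusted p = 0.101), but without NIH3T3 X0 it was 2.55 and called higher in HEK293A (adjusted p = 0.000413). The GPRC5A log2 difference of -1.89 was called, and without NIH3T3 X4 the call was lost, at -1.70 (adjusted p = 0.0604).

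**Figure D5:**
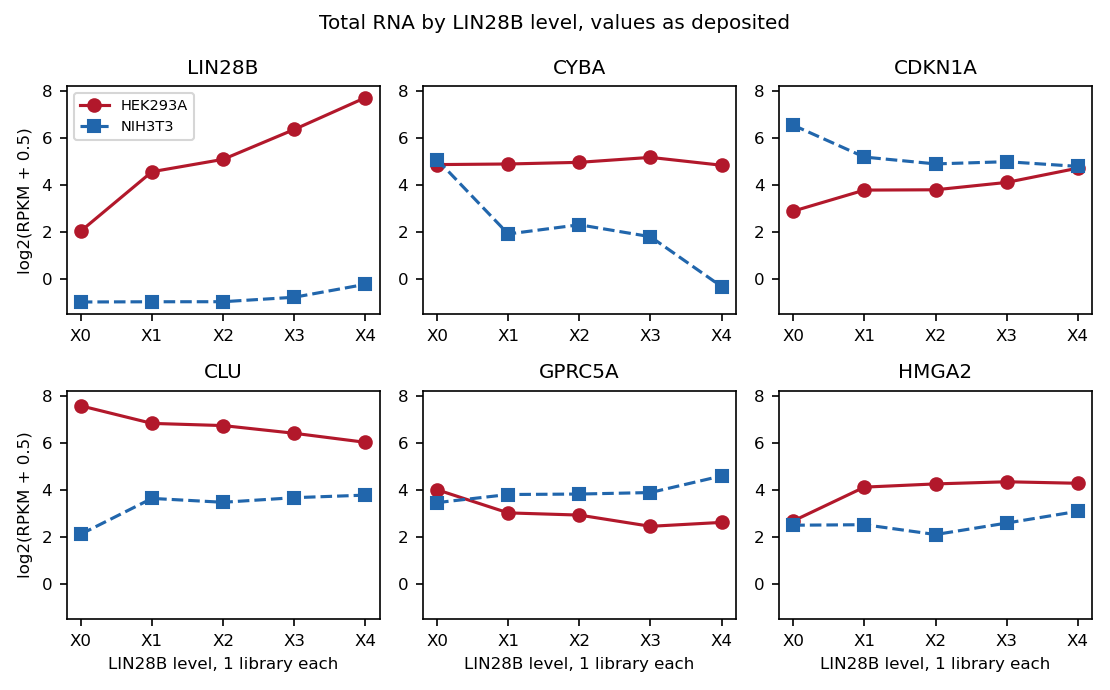
Level of LIN28B and of the 5 genes with the widest range of the difference between the lines, as log2(RPKM + 0.5) of the deposited values at X0 to X4 (1 library each; red circles HEK293A, blue squares NIH3T3). LIN28B climbs in HEK293A, CYBA falls in NIH3T3 to 0.3 RPKM at X4, and HMGA2 in HEK293A is lowest at X0.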

How the data were processed

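RPKM values of the total RNA columns were taken as the authors deposited them, in 1 human and 1 mouse table, with another table for let-7a transfected HEK293A cells. The submitters' processing notes name STAR and cutadapt, with mm10 and hg19 as builds; per the labels' protocols RNA was taken up in Trizol and libraries were made with Illumina kits for polyA RNA. For counting, the tool, annotation and strand setting were not given in the sources used here. Overlapping and antisense genes therefore cannot be told apart. Low values fall on whole-number steps, from which reads were recovered within 0.02 of a whole number for 100% of genes above 0 in both tables; model lengths came out whole for 99.97% of them in the human table and 98.26% in the mouse table.

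Symbols equal apart from capitals were joined, leaving out repeated ones. Log2(RPKM + 0.5) was quantile normalized and fitted with limma 3.58.1 (R 4.3.3) with a mean-variance trend and tested against a 2-fold difference. The added 0.5 shrinks fold changes of low genes. Quantile normalization also moves them, so a reported difference can be smaller or larger than the deposited one. The log2 difference of TWIST1 was -2.50 normalized and -1.36 as deposited, and that of SIX2 4.72 and 5.88. On simulated data with 9346 genes, 90% of 100 genes changed by 1.5 and 96% of 100 changed by 2 (log2) were recovered, with 0 false calls. Each simulated gene had the smaller SD of the lines, with normal noise, and most genes were unchanged. Unchanged genes had no difference at all, so false calls against 2-fold were unlikely from the start. The simulation therefore does not measure the error rate in these data. Pseudogene copies were counted from gene symbols alone.

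Named genes were LIN28B, LIN28A and, among called symbols at 5 RPKM or more, the 12 largest differences in each direction. Added were 3 called members of each of 28 lists, the 12 highest genes of the mouse table alone, its 3 highest of each list, the 5 with the widest range over levels, and the markers. NCL, HNRNPA2B1, MKI67, RBM42, EEF1A1, ACTB, GAPDH, VIM and other list members outside this rule were chosen after their values were seen. The microRNA list also holds older symbols of the Argonaute genes, which matched nothing. The members and lists were chosen with earlier results of these data known. Promoter windows are from RefSeq. A few genes that the rule names are not reported here; counts over lists and markers include them.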

Additional observations from a re-analysis of the deposited data

Results flagged for a closer look

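Among the named genes with a level of at least 1 RPKM, the 5 libraries of each line were searched for 1 library far from the rest on the log2(RPKM + 0.5) scale (Dixon's test for 5 values, critical value 0.71). Of 207 gene and line pairs 27 were marked, 13.04%, and 17 of the 27 were NIH3T3 X0. Some of the genes were named for their range over levels or after their values were seen, and genes of a library are not independent. The share is therefore not read against the 1 in 20 that chance marks for values not so chosen.

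In NIH3T3 X0 the value was below the other 4 libraries for FBLN5 (44.6 RPKM), PRRX2 (27.4), SNAI1 (46.6), CRABP1 (191), CXCL12 (14.2), ITGB5 (81.5), ITGB7 (2.03) and FGFR1 (20.7). It was also below them for the imprinted genes DLK1 (19.8 RPKM), NDN (0.678) and SNRPN (0.363), and for MYBL2 (0.932), LMNB2 (2.01) and CLU (3.82). It was above them for CDKN1A (92.1 RPKM), VIM (2994) and PRKRA (32.2). NIH3T3 X2 was low for TPX2 (1.44 RPKM) and TOP2A (1.34), and X4 was high for PSMA6 (148).

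In HEK293A X0 was high for MT-RNR2 (5758 RPKM) and CDKN2B (13.6) and low for STMN3 (6.16) and HMGA2 (5.87). X3 was high for MT-ND4 (3453 RPKM), and X4 was low for CDKN2A (38.5) and DGCR8 (12.7). Since X0 differs from the other libraries in LIN28B as well as in being 1 library, the level and the library cannot be told apart.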

How the results depend on the processing

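Counts of 2484 symbols higher, 2345 lower and 4829 in either direction depended most on scaling and on the size asked for. Without normalization 4746 were higher and 1304 lower. With a filter of 1 RPKM in all 10 libraries the counts were 1569, 1529 and 3098 of 6341 tested, and with gene models within 1.5-fold in length 1346, 1232 and 2578 of 5235 tested, in both cases with fewer symbols. Against no fold the counts were 4397, 4082 and 8479, and against 4-fold 1135, 1179 and 2314. Median centring, trimmed mean scaling, pseudocounts of 0.1 and 1, a mean of 5 RPKM, no division by gene length, no named copy, and leaving out X0 of both lines kept all 3 counts within 1.5 times. Leaving out each library in turn gave 2420 to 2513 higher and 2263 to 2382 lower. The choices on gene length, named copies and X0 were added after seeing the data. With LIN28B level as a replicate block the counts were 2484 higher and 2347 lower. Same-level libraries of the lines deviated together only weakly (correlation -0.03 to 0.21), so the shared level names were not treated as pairs. Under that block CDKN1A and PPARG lost their calls.

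Signs turned for few named genes, and the cause was not tested. The MITF log2 difference was 0.661 without normalization. The ACTB log2 difference was -0.541 without normalization, -1.68 with median centring and -1.74 with trimmed mean scaling, and the GAPDH log2 difference was -0.71, -1.85 and -1.91 in the same order and -0.0048 with similar lengths. The LHX1 log2 difference was 1.97 without normalization, 0.835 with median centring, 0.77 with trimmed mean scaling, 0.121 without length division, 0.0022 without X0 of both lines, and -0.0295 to 0.0042 without 1 library, turning without HEK293A X0. Of 44 list counts 26 stayed within 1.5 times without normalization and 43 without X0 of both lines. Depth limits genes with few reads, and the floor of the human table removes genes low in HEK293A, so medians of fibroblast lists leave out the most silent members. PPARG lost its call without HEK293A X0 or X1 or any NIH3T3 library other than X2, and GPRC5A without NIH3T3 X4.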

Other observations

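Genes whose symbols differ between the species were not compared by the test. FTL and Ftl1, ferritin light chains that store iron, averaged 809 ± 23.0 RPKM in HEK293A and 2923 ± 249 RPKM in NIH3T3 (SD, n = 5 each). GPI and Gpi1, the glycolytic isomerase, averaged 67.3 ± 3.50 RPKM in HEK293A and 259 ± 13.4 RPKM in NIH3T3. HPRT1 and Hprt, of purine salvage, averaged 96.3 ± 4.30 RPKM in HEK293A and 20.4 ± 3.58 RPKM in NIH3T3. RAB7A and Rab7, a small GTPase of late endosomes, averaged 150.02 ± 6.61 RPKM in HEK293A and 59.7 ± 9.62 RPKM in NIH3T3. TXN and Txn1, thioredoxins, averaged 380.3 ± 16.9 RPKM in HEK293A and 565 ± 57.4 RPKM in NIH3T3.

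Read classes also differed. EEF1A1 alone took 0.0378% to 0.0430% of HEK293A reads and 2.44% to 3.04% of NIH3T3 reads, and 966 mouse symbols named as pseudogenes took 3.54% to 3.99% of NIH3T3 reads. With symbols split into 5 groups of about equal size from the shortest to the longest human gene model the median difference between the lines was 0.12, 0.06, 0.11, 0.08 and 0.01, and the share called higher in HEK293A was 28.4%, 28.2%, 27.4%, 25.2% and 23.7%. Without division by length the median was -0.77 in the shortest group and 0.97 in the longest.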
